A study of Sus scrofa with 9 samples.

Results

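Heat shock and chaperonin genes were followed in the mammary gland of sows between late pregnancy and peak lactation. They were taken by symbol: every probe set annotated to a single gene whose symbol starts with HSPA, HSPB, HSPD, HSPE, HSPH, HSP90A, DNAJ or CCT, or is TCP1, BAG1, BAG2, BAG3, STIP1 or HSF1, with the endoplasmic reticulum chaperones HSPA5, HSP90B1 and DNAJB11 left out. The rule gave 84 probe sets for 52 genes, of 24123 probe sets on the array and 6765 genes with a probe set of a single symbol. The name cytosolic does not cover all of them, because the symbols also bring in 6 genes for mitochondrial proteins and 3 for J proteins of the endoplasmic reticulum. Nor does it cover HSPA13, which is microsome-associated, or DNAJC14, of the endoplasmic reticulum membrane. These are counted below with the HSP70 group and with the cytosolic or nuclear J proteins. After a filter on dim signals 74 of the 84 probe sets and 51 of the 52 genes were tested. HSPB3, a small heat shock protein of muscle, stayed below the filter.

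The study took mammary tissue from 6 Large White sows on a corn and soybean meal diet, by biopsy of the anterior glands of the right side. The groups were day -17, in late pregnancy, day 1, just after farrowing, and day 17, near peak lactation, all relative to parturition and all from untreated sows. Each array took a pool of RNA from 2 sows, so that every day had 3 pools and the study 9 Affymetrix porcine arrays. The same sows were biopsied on every day, so the 3 days are not independent, and each value stands for a pool and not for an animal.

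Chaperones hold unfolded proteins and help them fold. HSP70 proteins bind short stretches of a client in a cycle driven by ATP, J proteins (gene names starting DNAJ) bring clients and start ATP cleavage, and exchange factors such as the HSP110 and BAG proteins reset the cycle. HSP90 acts later, on kinases and steroid receptors, the chaperonin CCT encloses actin and tubulin in a double ring, and small heat shock proteins hold unfolding clients without ATP. HSF1 is the transcription factor that switches on many of these genes in stress. In a lactating gland the secretory cells make milk protein on ribosomes of the endoplasmic reticulum, which has chaperones of its own.

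The tissue label was checked against marker genes: all 7 milk protein genes tested were higher on day 17 than on day -17, and their summed signal was 60484 to 85934 on day -17, 216822 to 304309 on day 1 and 458643 to 468487 on day 17. The luminal epithelium markers, also chosen for this check, were mixed. Of 8 tested, 3 were higher and 3 lower on day 17 than on day -17 (23.8% and 23.8% of all genes), with a median log2 difference of -0.42. PRLR and ESR1 were below the filter. Their summed signal was 16372 to 34808 on day -17, 25518 to 41276 on day 1 and 42231 to 46263 on day 17, without PRLR and ESR1. All 9 arrays had been scaled to the same trimmed mean, 500.1. The bacterial control transcripts added to each array did not stay level at that scale: their median log2 signal was 10.9 to 10.97 on day -17, 11.19 to 11.35 on day 1 and 12.11 to 12.34 on day 17. Every direction below is therefore relative to the average gene of the array. Scaling on those controls moves every log2 difference by -0.43 for day 1 against day -17, by -0.87 for day 17 against day 1 and by -1.30 for day 17 against day -17. RNA measures moved with the days as well, since the ratio of 3' to 5' signal was 7.01 to 7.26 on day -17, 8.39 to 9.57 on day 1 and 14.5 to 15.9 on day 17 for beta-actin, and 2.38 to 3.06, 2.25 to 2.32 and 1.77 to 1.98 for GAPDH in the same order of days. The part of either in the results was not tested.

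Between day -17 and day 1 most of the movement was upward. Of the 51 genes, 11 were called higher and 2 lower on day 1, with a median log2 difference of 0.11 against 0.00 over all 5670 genes tested. A gene was called when limma's adjusted p over all tested probe sets was under 0.05, and by that rule 15.3% of all genes were higher and 10.4% lower. Between day 1 and day 17 the balance was the other way, with 2 genes called higher and 12 lower on day 17, a median of -0.19 against -0.04 over all genes, and a background of 8.02% higher and 8.57% lower. Over the whole interval, day 17 against day -17, 9 genes were higher and 18 lower, with a median of -0.22 against -0.03 and a background of 23.8% higher and 23.8% lower. A test for any difference among the 3 days called 30 of the 51 genes, against 47.8% of all genes. Leaving out single pools changed the count for day 17 against day 1 the most, to 6 without day 17 pool 2, 8 without day 17 pool 1 and 9 without day 1 pool 2 or without day 1 pool 3. Calls over all tested probe sets fell as well, from 2116 to 1168, 1079, 1397 and 1329 in the same order of pools. The calls lost without a pool that are listed below stand beside this fall across the array.

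With the arrays scaled on the bacterial controls the members moved down with the rest of the array. Then 7 members were higher and 18 lower on day 1 than on day -17 (background 6.56% and 39.7%). On day 17 no member was higher and 43 were lower than on day 1 (background 0.723% and 76.6%), and 3 were higher and 45 lower than on day -17 (background 3.16% and 83.8%). The 7 that kept their higher call on day 1 were DNAJC6, DNAJB9, DNAJC3, HSPA13, DNAJC5, DNAJA1 and BAG1, and the 3 on day 17 against day -17 were DNAJC6, DNAJB9 and DNAJC3.

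**Figure D1:**
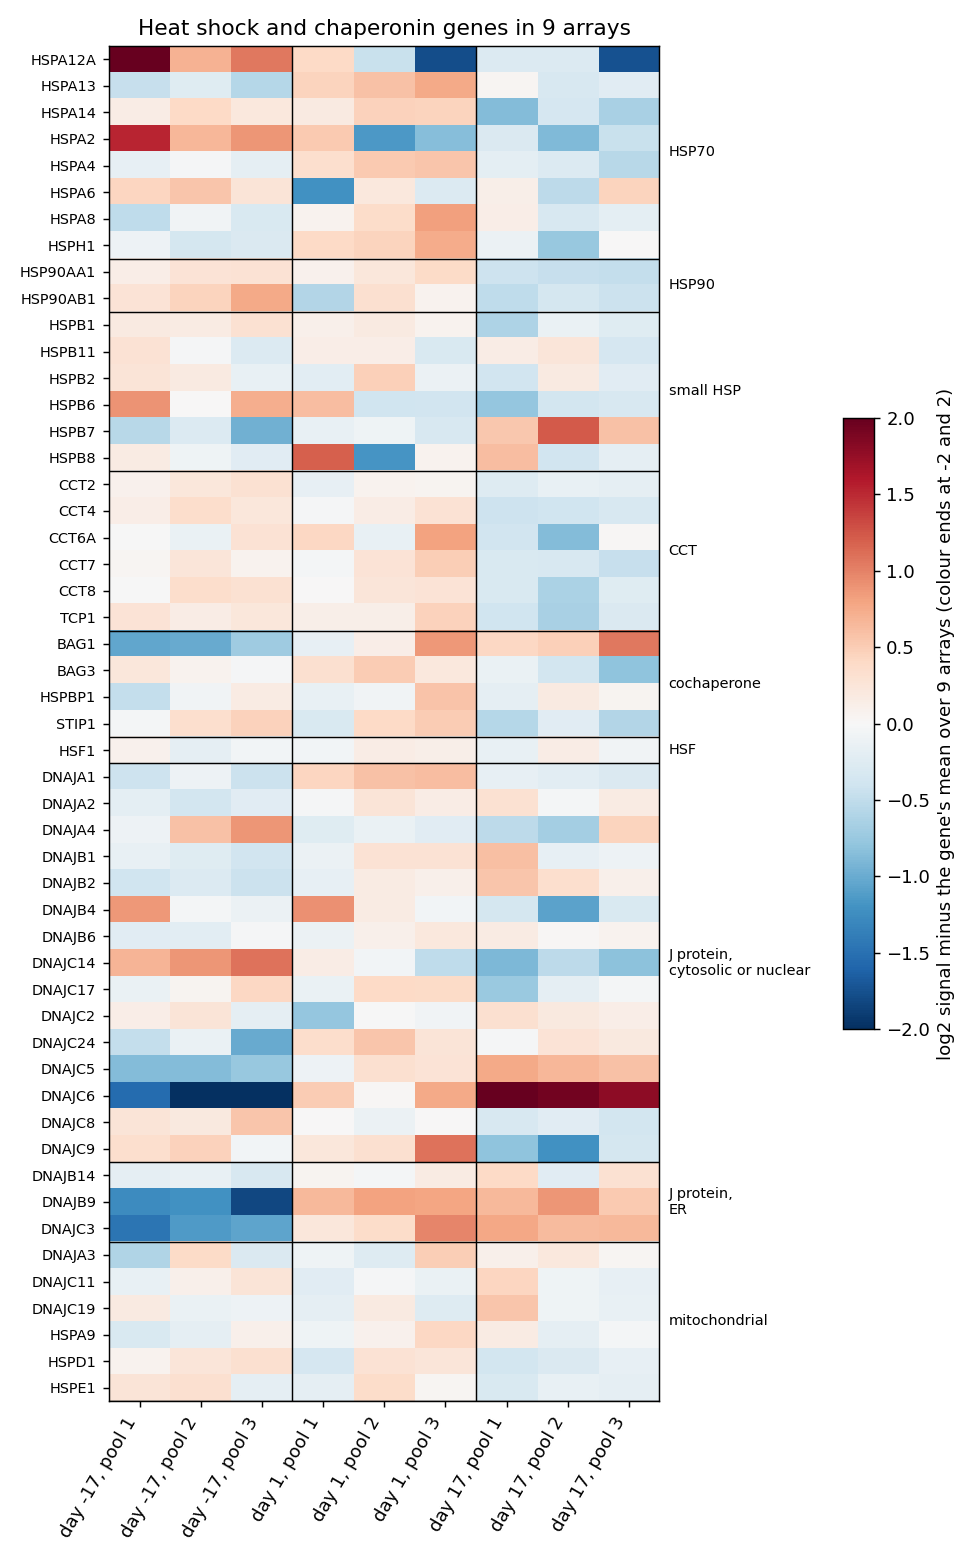
Signal of the 51 tested genes (rows, grouped by role) in the 9 pools (columns, by day), as log2 signal minus the gene's own mean over the 9 arrays, with red above and blue below that mean and the colour ending at -2 and 2. DNAJC6, DNAJB9 and DNAJC3 are blue in all 3 pools of day -17, and most CCT rows are blue in the pools of day 17.

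**Figure D2:**
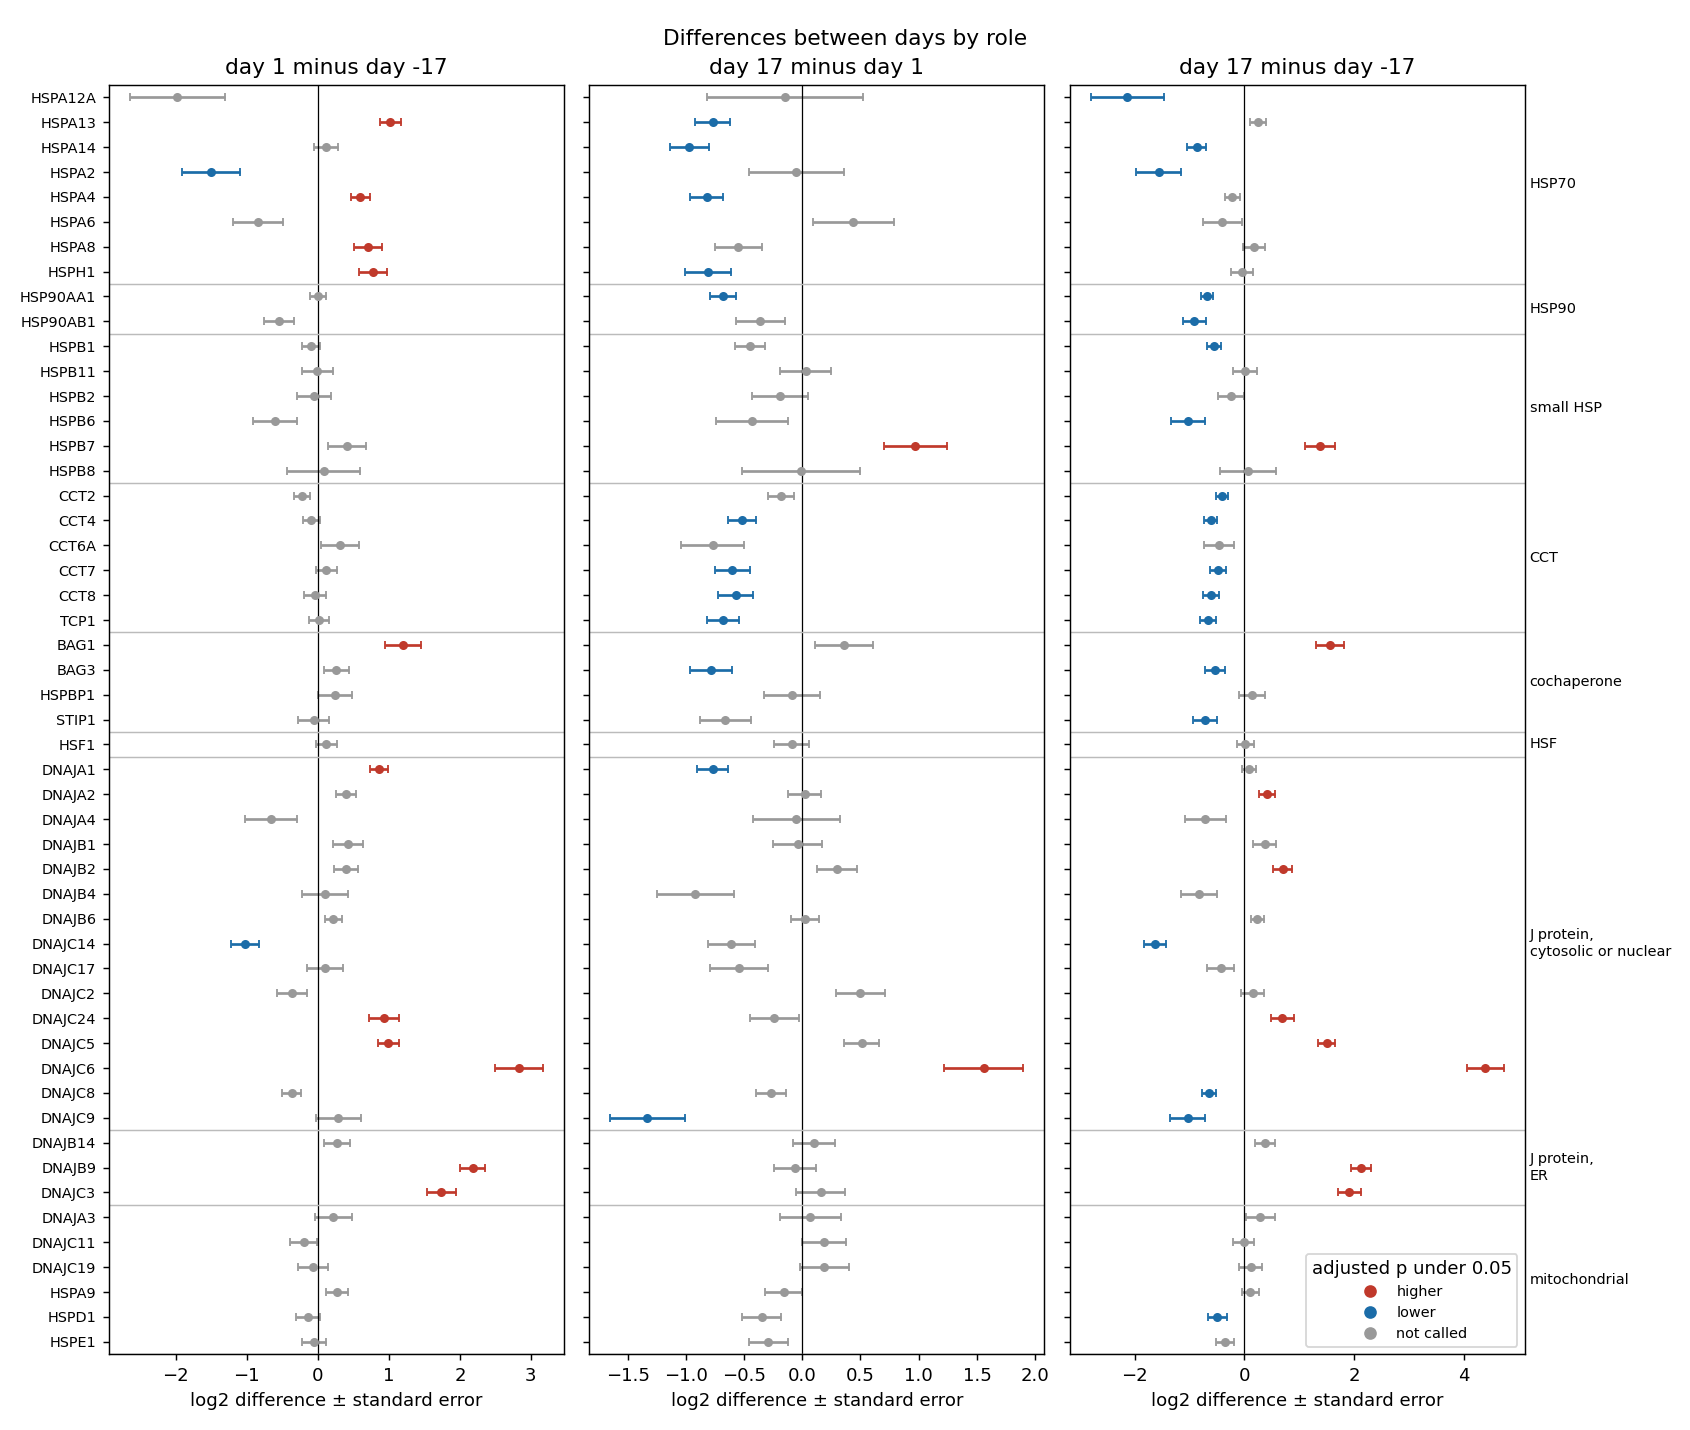
Log2 difference of each tested gene (rows, by role) with its standard error, for day 1 minus day -17, day 17 minus day 1 and day 17 minus day -17 (n = 3 pools a day). Red points were called higher, blue points lower and grey points were not called at an adjusted p under 0.05; DNAJC6 lies farthest to the right in all 3 panels.

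The HSP70 group held 8 tested genes. On day 1, 4 of them were higher than on day -17 (HSPA4, HSPA8, HSPA13 and HSPH1) and 1 was lower (HSPA2). The shares of all genes were 15.3% and 10.4%. On day 17, 4 were lower than on day 1 (HSPA4, HSPA13, HSPA14 and HSPH1) and none was higher, against 8.57% and 8.02% of all genes. HSPA8, the constitutive HSC70, had signals of 5827, 7886 and 6642 on day -17, 8676, 10646 and 14494 on day 1 and 9036, 6612 and 7201 on day 17. All pools of day 1 lay above those of day -17, and pool 3 of day 1 stood highest. The log2 difference on day 1 against day -17 was 0.71 ± 0.20 (SE, adjusted p = 0.0269), and on day 17 against day 1 it was -0.55 ± 0.20, which was not called (adjusted p = 0.0909). The other 3 tested HSPA8 probe sets were not called in any comparison.

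HSPA4 and HSPH1 encode HSP110 proteins, which release ADP from HSP70. HSPA4 had 630.3, 696.4 and 624.2 on day -17, 891.6, 1023 and 1038 on day 1 and 615.7, 583.1 and 482.6 on day 17. HSPH1 had 1178, 995.2 and 1042 on day -17, 1667, 1728 and 2128 on day 1 and 1174, 753.5 and 1275 on day 17. For both genes the 3 pools of day 1 were above all 6 other pools. HSPA4 was higher on day 1 than on day -17 by 0.60 ± 0.14 (adjusted p = 0.0151) and lower on day 17 than on day 1, at -0.82 ± 0.14 (adjusted p = 0.00734). HSPH1 gave 0.78 ± 0.20 (adjusted p = 0.0197) and -0.81 ± 0.20 (adjusted p = 0.0249). Neither was called on day 17 against day -17. A second HSPA4 probe set was also called higher on day 1 than on day -17 (0.67, adjusted p = 0.0149). On day 17 against day 1 that probe set was not called (-0.47, adjusted p = 0.0795).

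HSPA13, a microsome-associated HSP70 relative, had the same course, with means of 751 ± 89.4 on day -17, 1521 ± 166 on day 1 and 896 ± 120 on day 17 (SD, n = 3 pools). Its log2 difference was 1.02 ± 0.15 on day 1 against day -17 (adjusted p = 0.00166) and -0.77 ± 0.15 on day 17 against day 1 (adjusted p = 0.0117). So did DNAJA1, a J protein partner of HSC70, at 1527 ± 204 on day -17, 2757 ± 189 on day 1 and 1619 ± 70.4 on day 17 (SD, n = 3 pools). Its differences were 0.86 ± 0.13 (adjusted p = 0.0016) and -0.77 ± 0.13 (adjusted p = 0.00585), although a second DNAJA1 probe set was called only for its lower signal on day 17, at -0.79 against day 1 and -0.63 against day -17. HSPA4, HSPH1, HSPA13 and DNAJA1 were the 4 genes called both higher on day 1 than on day -17 and lower on day 17 than on day 1. Of 9 early response genes, whose transcripts rise within minutes of a stimulus, 3 were higher (FOS, DUSP1 and ZFP36) and 1 was lower (MYC, -0.73 ± 0.16) on day 1 than on day -17. The shares of all genes were 15.3% and 10.4%. On day 17 against day -17, DUSP1 (1.53) and ZFP36 (1.11) were higher as well and 3 genes were lower (23.8% and 23.8% of all genes). The list's summed signal was 8803 to 10726 on day -17, 11620 to 15126 on day 1 and 9766 to 11671 on day 17, and its part in these results was not tested.

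Several of these calls ended when a pool was left out, and the differences that remained are given beside them. The HSPA8 call was lost without any one of 4 pools, where its difference was 0.51 to 0.74, at adjusted p = 0.0799 (without day -17 pool 1), 0.0737 (day -17 pool 3), 0.0554 (day 1 pool 2) and 0.0903 (day 1 pool 3). It was also lost with quantile normalization (0.0602), with its 4 probe sets averaged (0.34, adjusted p = 0.205), with no intensity trend (0.0521) and on the 6 compared arrays alone (0.052). Scaling on the bacterial controls ended the day 1 calls of HSPA8 (0.28, adjusted p = 0.201), HSPA4 (0.17, adjusted p = 0.378) and HSPH1 (0.35, adjusted p = 0.135). HSPA4, at 0.57 and 0.56, missed the threshold on day 1 against day -17 without day -17 pool 3 (0.0542) or without day 1 pool 3 (0.0545), and HSPH1, at 0.67 to 0.76, without day -17 pool 2 (0.0603), without day -17 pool 3 (0.0601) or without day 1 pool 3 (0.0759). On day 17 against day 1 HSPH1 missed it, at -0.86 to -0.58, without day 1 pool 2 (0.0507), without day 1 pool 3 (0.0797) or without day 17 pool 2 (0.0623).

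HSPA14, the HSP70 partner in the ribosome-associated complex, had 574.7, 681.7 and 598.1 on day -17, 584, 712.6 and 701.8 on day 1 and 284.2, 410.8 and 329.6 on day 17. All pools of day 17 were below all other pools. The difference was -0.97 ± 0.17 on day 17 against day 1 (adjusted p = 0.00744) and -0.87 ± 0.17 on day 17 against day -17 (adjusted p = 0.00265). DNAJC2, its J protein partner on the ribosome, was not called in any comparison, with 0.50 ± 0.21 on day 17 against day 1 (adjusted p = 0.137).

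HSPA2, an HSP70 known best from the testis, had 555.1, 306.1 and 357.3 on day -17, 278.5, 87.36 and 107.4 on day 1 and 158.8, 105.3 and 141.5 on day 17. No pool of day 1 or day 17 reached a pool of day -17. It was lower on day 1 than on day -17 by a log2 difference of -1.51 ± 0.41 (adjusted p = 0.0246) and on day 17 than on day -17 by -1.56 ± 0.41 (adjusted p = 0.0108). HSPA12A, a distant HSP70 relative, had 349.1, 110.5 and 140.9 on day -17, 89.95, 49.71 and 19.82 on day 1 and 56.56, 56.59 and 20.27 on day 17. Its day 17 pools were all below its day -17 pools and below the 40th percentile of their arrays, as were 2 of the day 1 pools, so it passed the filter mainly through the pools of day -17 and no size of the difference is given. The fit called it lower on day 17 than on day -17 (adjusted p = 0.0241). On day 1 against day -17 it was not called (adjusted p = 0.0542), but it was when pools of the same number were treated as a block (adjusted p = 0.0132).

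The adipocyte markers ADIPOQ and LIPE were in the same order of pools on day -17, pool 1 above pool 3 above pool 2, with ADIPOQ at 546.6, 73.94 and 318.6. ADIPOQ was at 23.24, 8.868 and 7.218 on day 17, far below the filter level of 90.69 to 94.19 on those arrays, so that no size is given for its fall. Of the 8 adipocyte markers 4 were lower and 2 higher on day 17 than on day -17 (23.8% and 23.8% of all genes). The 2 higher ones, CIDEA and FABP4, had the same order of pools on day -17. CIDEA was at 608.2, 158.7 and 426 there, and its log2 difference on day 17 against day -17 was 4.08. The summed signal of the 8, most of it from FABP4, was 7669 to 19753 on day -17, 15426 to 22248 on day 1 and 20549 to 23638 on day 17. Fibroblast markers moved down more widely: 7 of 9 were lower and none was higher on day 17 than on day -17 (limma), against 23.8% and 23.8% of all genes. The fibroblast list had a summed signal of 57502 to 77461 on day -17, 27892 to 67409 on day 1 and 26992 to 31140 on day 17. The marker FBN1, not itself called in that comparison (adjusted p = 0.0522), had the same order of pools on day -17, at 12958, 4946 and 8606. So did COL1A2 and DCN, while COL5A1 (3501, 2222 and 3755) and COL3A1 (121.5, 101.7 and 134.6) had pool 3 highest. The part of either list in the HSPA2 and HSPA12A results was not tested, and in such bulk tissue fewer cells of a type and less RNA per cell cannot be told apart. The HSPA12A call on day 17 was lost without day -17 pool 1 (0.0999) or without day 17 pool 3 (0.0822), and the HSPA2 call on day 1 was lost without day -17 pool 1 (0.0775), without day -17 pool 3 (0.0579), without day 1 pool 2 (0.0774) or without day 1 pool 3 (0.0899), and on the 6 compared arrays alone (0.0523).

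HSPA6, a stress-inducible HSP70 in humans, was not called in any comparison, with 299.7, 325.9 and 266.1 on day -17, 96.28, 258.1 and 184.1 on day 1 and 240.5, 155.2 and 304.7 on day 17. The stress-inducible HSP70 of the pig is annotated as HSP70.2, with HSPA1A and HSPA1B as synonyms in RefSeq, so it falls outside the symbols of the rule; it is named here after its values were seen. Its signals were 3270, 2646 and 2843 on day -17, 3092, 2677 and 2960 on day 1 and 1985, 1467 and 1527 on day 17. The pools of days -17 and 1 overlapped and those of day 17 lay below them all, with differences of 0.00 ± 0.15 on day 1 against day -17, -0.82 ± 0.15 on day 17 against day 1 (adjusted p = 0.00757) and -0.82 ± 0.15 on day 17 against day -17 (adjusted p = 0.00146). These values are from its brightest probe set. Another overlapped on days -17 and 17 and was not called there (-0.61, adjusted p = 0.054), and a further one was (-0.71, adjusted p = 0.0116). Each was called lower on day 17 than on day 1.

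**Figure D3:**
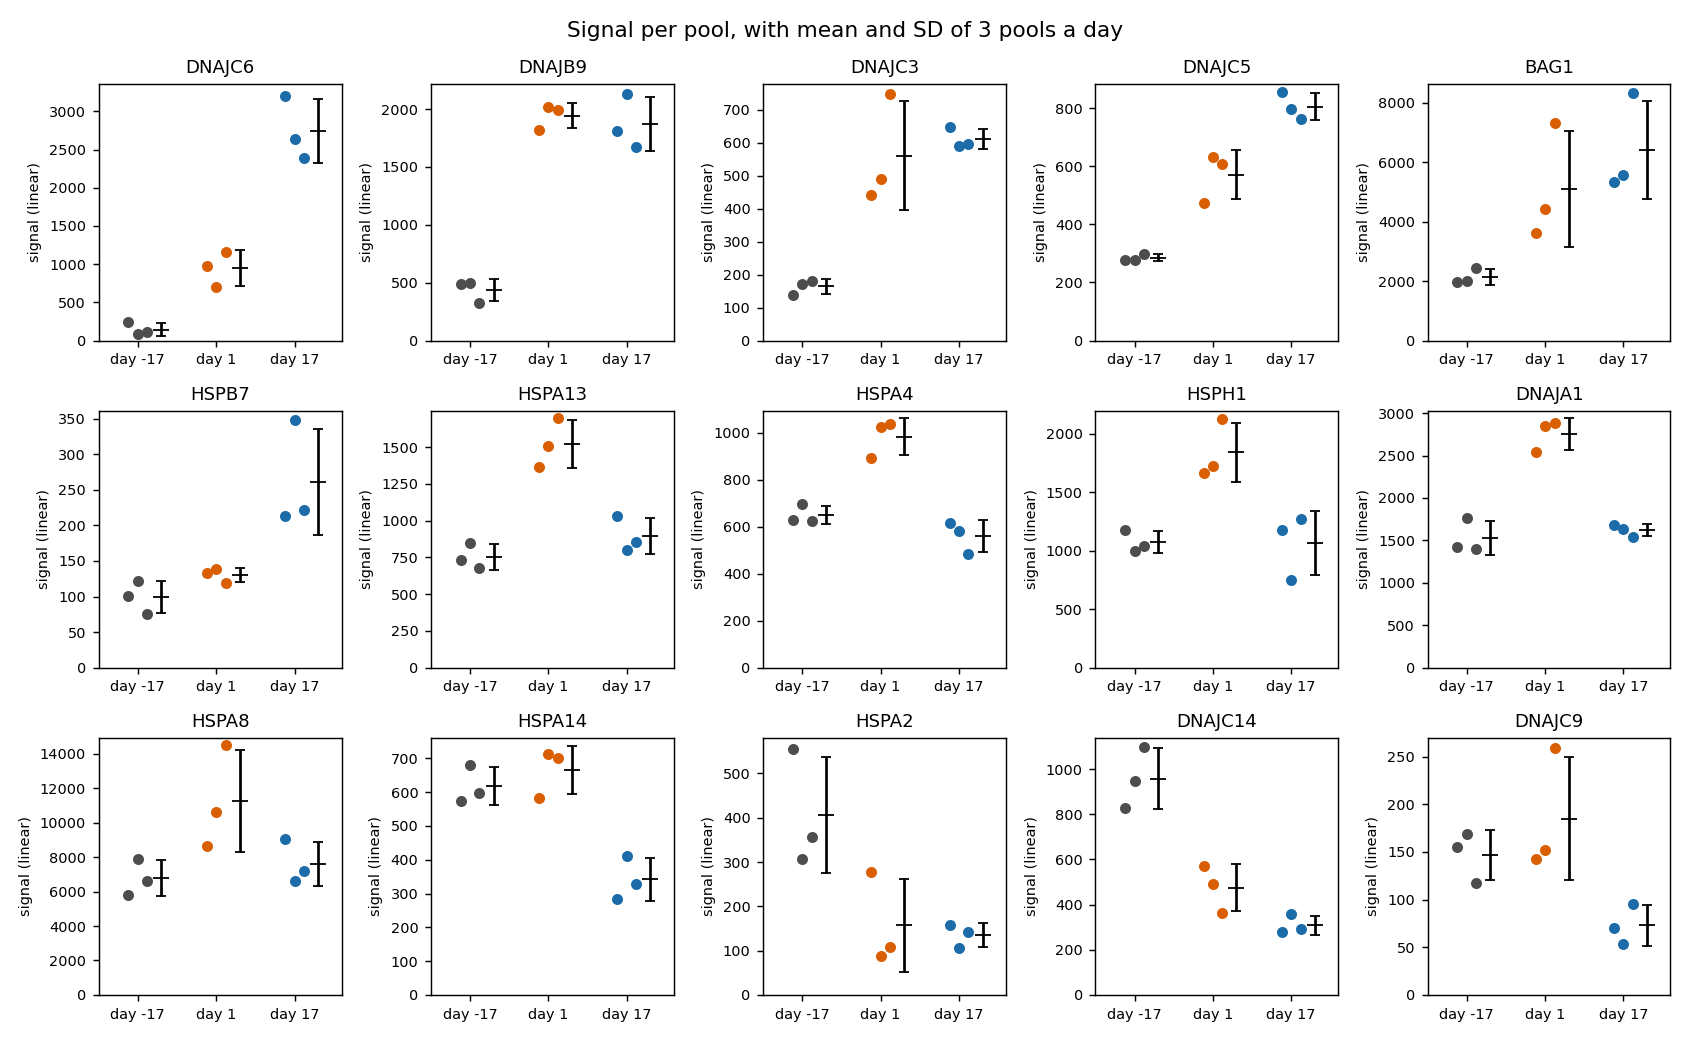
Linear signal in each of the 3 pools of day -17, day 1 and day 17 for 15 members, with the mean and SD of each day beside the points and axes from 0. DNAJC6 climbs over both intervals, DNAJC5 separates the 3 days too, DNAJB9, DNAJC3 and BAG1 are low on day -17 only, HSPA13, HSPA4, HSPH1 and DNAJA1 are highest on day 1, and HSPA14 and DNAJC9 are lowest on day 17.

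Both cytosolic HSP90 genes were lower on day 17 than on day -17, as were 23.8% of all genes. HSP90AB1, the constitutive form, had signals of 13837, 15590 and 19297 on day -17, 7650, 14286 and 12021 on day 1 and 8085, 8993 and 8545 on day 17. All pools of day 17 were below all pools of day -17, while those of day 1 spread over both ranges. The log2 difference on day 17 against day -17 was -0.91 ± 0.21 (adjusted p = 0.00541). On day 1 against day -17 it was -0.55 ± 0.21, which was not called (adjusted p = 0.0785). With pools of the same number as a block HSP90AB1 was called lower there (adjusted p = 0.0298).

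HSP90AA1, the stress-inducible form, was read by 5 tested probe sets annotated to the same transcript, and they did not move together. The probe set used for the gene, with the highest mean signal, had 10145, 11167 and 11279 on day -17, 9804, 10811 and 12034 on day 1 and 6949, 6723 and 6671 on day 17. Its pools of day 17 were below all the others, at -0.68 ± 0.11 against day 1 (adjusted p = 0.00484) and -0.68 ± 0.11 against day -17 (adjusted p = 0.00071). A second one had 1723, 1800 and 1943 on day -17, 3050, 3314 and 4019 on day 1 and 3412, 3020 and 3167 on day 17. It was higher on day 1 than on day -17 (0.92 ± 0.13, adjusted p = 0.00117) and on day 17 than on day -17 (0.81 ± 0.13, adjusted p = 0.000776), the opposite of the first. The third was lower on day 1 than on day -17 (-0.77 ± 0.16, adjusted p = 0.00839), the fourth was lower on day 17 than on day -17 (-1.15 ± 0.21, adjusted p = 0.00148), and the fifth was not called in any comparison. With the 5 averaged, HSP90AA1 stayed lower on day 17 than on day -17 (-0.37, adjusted p = 0.0218) but was not called on day 17 against day 1 (-0.25, adjusted p = 0.162). Among the 15 members with several tested probe sets, HSP90AA1 was the only one with calls in opposite directions in the same comparison.

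**Figure D4:**
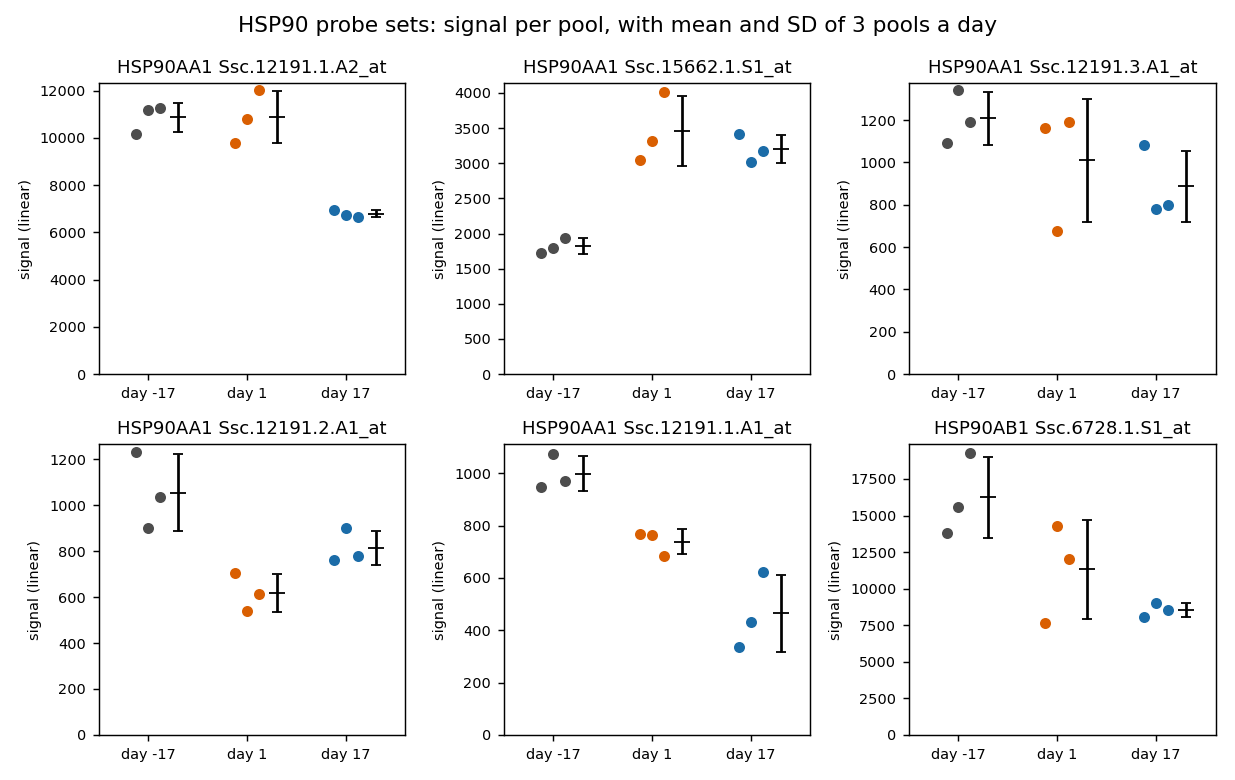
Linear signal per pool, with the mean and SD of each day, for the 5 tested HSP90AA1 probe sets and the HSP90AB1 probe set, with axes from 0. The HSP90AA1 probe set with a mean of 10864 on day -17 and 6781 on day 17 goes down, while the one with 1822 on day -17 and 3200 on day 17 goes up.

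CCT is a ring of 8 kinds of subunit, of which 6 were read here. None was called on day 1 against day -17, with log2 differences of -0.22 to 0.31. On day 17, 4 were lower than on day 1 and 5 were lower than on day -17, against 8.57% and 23.8% of all genes. No subunit was called higher in any comparison. CCT4 had 4778, 5523 and 5069 on day -17, 4287, 4840 and 5328 on day 1 and 3278, 3298 and 3467 on day 17. Its difference was -0.52 ± 0.12 on day 17 against day 1 (adjusted p = 0.0173) and -0.61 ± 0.12 on day 17 against day -17 (adjusted p = 0.00201).

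TCP1, the first subunit named, had 1895, 1741 and 1851 on day -17, 1703, 1710 and 2171 on day 1 and 1195, 1003 and 1293 on day 17. CCT7 had 2519, 2899 and 2578 on day -17, 2384, 2961 and 3439 on day 1 and 1984, 1964 and 1789 on day 17. CCT8 had 2913, 3711 and 3597 on day -17, 2949, 3457 and 3517 on day 1 and 2372, 1887 and 2469 on day 17. For CCT4, TCP1, CCT7 and CCT8 every pool of day 17 was below all 6 earlier pools. On day 17 against day 1 the differences were -0.68 ± 0.14 for TCP1 (adjusted p = 0.0152), -0.60 ± 0.15 for CCT7 (0.0241) and -0.57 ± 0.15 for CCT8 (0.0328). Against day -17 they were -0.66 ± 0.14 for TCP1 (adjusted p = 0.00439), -0.48 ± 0.15 for CCT7 (0.0213) and -0.61 ± 0.15 for CCT8 (0.00779).

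CCT2 had 4828, 5334 and 5613 on day -17, 4062, 4774 and 4751 on day 1 and 3821, 4097 and 4018 on day 17. Every pool of day -17 was above those of days 1 and 17, which overlapped, and only day 17 against day -17 was called, at -0.40 ± 0.11 (adjusted p = 0.0149). CCT6A had 1910, 1743 and 2339 on day -17, 2561, 1727 and 3358 on day 1 and 1463, 1049 and 1937 on day 17. Its pool 2 was the lowest of each day, and it was not called on day 17 against day 1 (-0.77 ± 0.27, adjusted p = 0.0811) or against day -17 (-0.46 ± 0.27, adjusted p = 0.178; 0.0191 with pools of the same number as a block). A second CCT6A probe set was called on day 17 against day 1 (-0.66, adjusted p = 0.017).

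These differences are smaller than 2-fold, and several calls ended when a pool was left out. The CCT7 call on day 17 against day 1 was lost without any one of 5 of the 6 pools compared (all but day 1 pool 1), with adjusted p from 0.0602 to 0.0837 and differences of -0.63 to -0.48. The CCT8 call was lost without the same 5, with adjusted p from 0.0554 to 0.111 and differences of -0.64 to -0.45, and with no intensity trend (0.062). CCT4 was lost without day 1 pool 3 (0.0519), without day 17 pool 1 (0.0594) or without day 17 pool 2 (0.059), and TCP1 without day 17 pool 2 (0.0572). Against day -17 CCT2 was lost without day -17 pool 3 (0.0583) or without day 17 pool 1 (0.0523) and CCT7 without day -17 pool 2 (0.0737) or without day 17 pool 3 (0.0715), while CCT4, CCT8 and TCP1 kept their calls without any one pool. Centring each array on its median ended the calls of CCT2 (0.0672) and CCT7 (0.0677) on day 17 against day -17.

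**Figure D5:**
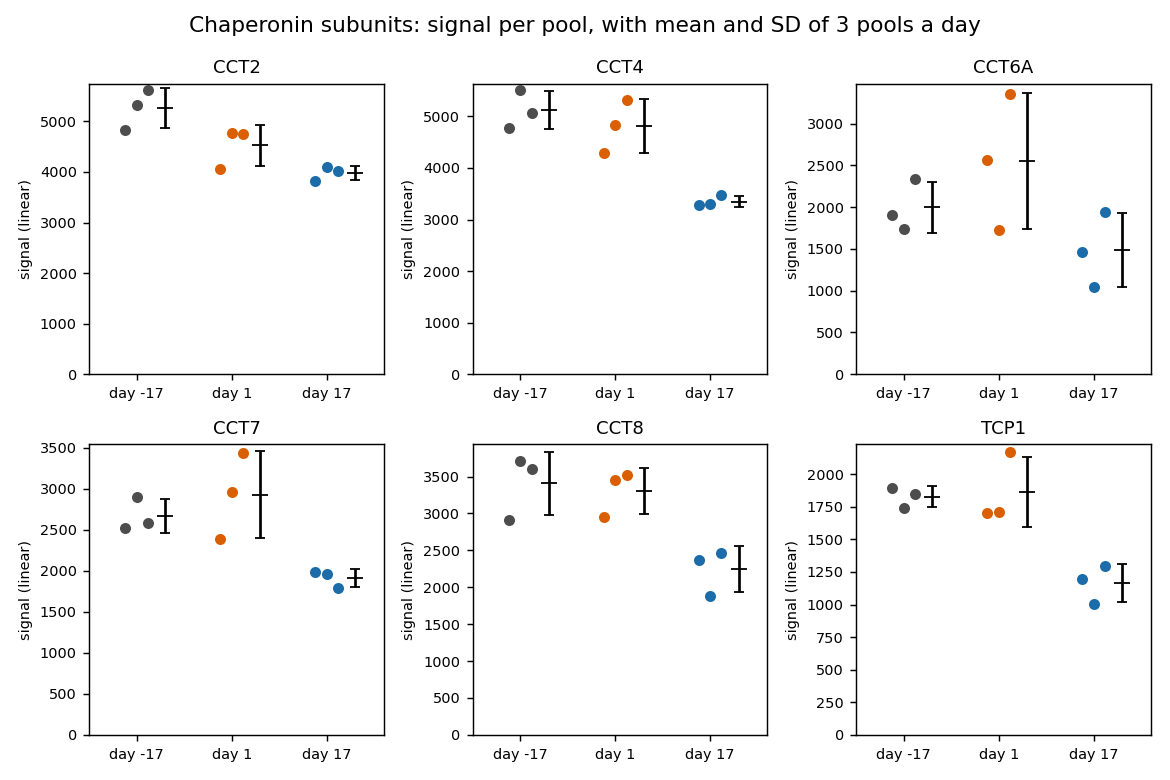
Linear signal in each pool of day -17, day 1 and day 17 for the 6 CCT subunits, with the mean and SD of each day and axes from 0. Days -17 and 1 overlap for each subunit but CCT2, and for CCT4, CCT7, CCT8 and TCP1 the 3 pools of day 17 lie below all others.

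Of the 4 cochaperones that carry no J domain, BAG1 was higher and BAG3 and STIP1 were lower on day 17 than on day -17. In that comparison 23.8% of all genes were higher and 23.8% lower. BAG1, an HSP70 exchange factor that also binds the proteasome, had 1964, 1996 and 2447 on day -17, 3607, 4419 and 7323 on day 1 and 5346, 5581 and 8329 on day 17. All later pools were above those of day -17, and pool 3 was the highest of each day. The difference was 1.20 ± 0.25 on day 1 against day -17 (adjusted p = 0.00833), 0.36 ± 0.25 on day 17 against day 1, not called, and 1.56 ± 0.25 on day 17 against day -17 (adjusted p = 0.000855). With bacterial control scaling the last was 0.26 and not called (adjusted p = 0.295). A second, dimmer BAG1 probe set was not called on day 1 against day -17 (1.03, adjusted p = 0.0565), where its pools overlapped. It was called higher on day 17 than on day -17 (0.96, adjusted p = 0.0436).

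BAG3, which links HSP70 to small heat shock proteins and autophagy, had means of 1307 ± 113 on day -17, 1561 ± 165 on day 1 and 922 ± 213 on day 17 (SD, n = 3 pools). It was lower on day 17 than on day 1 (-0.78 ± 0.18, adjusted p = 0.0193) and than on day -17 (-0.53 ± 0.18, adjusted p = 0.0338), but a second probe set was not called, and with both averaged neither was the gene (adjusted p = 0.0905 and 0.363). The first call was also lost without day 1 pool 2 (0.0603), without day 17 pool 2 (0.0507) or without day 17 pool 3 (0.0578), and the second without any of 5 pools (all but day 17 pool 1), with adjusted p from 0.052 to 0.119. Quantile normalization (0.0543), median centring (0.0709) and no intensity trend (0.052) ended the second call as well. STIP1, the adaptor between HSP70 and HSP90 known as HOP, had means of 1515 ± 265, 1484 ± 408 and 920 ± 136 on days -17, 1 and 17 (SD, n = 3 pools). Its difference on day 17 against day -17 was -0.71 ± 0.22 (adjusted p = 0.0248), lost without day -17 pool 2 (0.0684), without day -17 pool 3 (0.0882), without day 17 pool 1 (0.0769) or without day 17 pool 3 (0.0769). HSPBP1, another exchange factor, was not called in any comparison.

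HSF1 was not called in any comparison. Its signals were 453.3, 379.9 and 414.1 on day -17, 412.8, 472.4 and 466.1 on day 1 and 387.4, 473.2 and 407.5 on day 17, and the pools of all days overlapped. The log2 differences were 0.12 ± 0.15 on day 1 against day -17, -0.09 ± 0.15 on day 17 against day 1 and 0.02 ± 0.15 on day 17 against day -17. The array reads transcript levels, and not the activity of the protein.

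The J proteins held the largest differences of the set. DNAJC6, or auxilin, which recruits HSC70 to strip clathrin from coated vesicles, had 237, 82.84 and 112.2 on day -17, 978.6, 697.7 and 1164 on day 1 and 3205, 2637 and 2395 on day 17. The 3 days did not overlap, and each was above the one before. The difference was 2.83 ± 0.34 on day 1 against day -17 (7.12-fold, adjusted p = 0.000503), 1.56 ± 0.34 on day 17 against day 1 (2.94-fold, adjusted p = 0.0165) and 4.39 ± 0.34 on day 17 against day -17 (20.9-fold, adjusted p = 1.23e-05). It was the only member called higher in all 3 comparisons. The middle one was lost without day 1 pool 2 (0.0528) or without day 17 pool 1 (0.0619) and with bacterial control scaling (0.68, adjusted p = 0.102), under which the whole interval still gave 3.09 (adjusted p = 1.77e-05). On day -17 pool 2 was just below the 40th percentile of its array, at 82.84 against 93.11.

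DNAJC5, the cysteine string protein of exocytosis, was higher on day 1 than on day -17 (0.99 ± 0.15, adjusted p = 0.0018) and on day 17 than on day -17 (1.50 ± 0.15, adjusted p = 5.8e-05), with means of 285 ± 11.5 on day -17, 572 ± 85.4 on day 1 and 806 ± 46.9 on day 17 (SD, n = 3 pools). Its pools of day 17 were all above those of day 1, a difference of 0.51 ± 0.15 that was not called (adjusted p = 0.0527). DNAJC24, of the diphthamide pathway that modifies an elongation factor, was higher by 0.93 ± 0.21 on day 1 (adjusted p = 0.0121) and 0.69 ± 0.21 on day 17 (adjusted p = 0.0227), each against day -17. DNAJB2 (0.70 ± 0.17, adjusted p = 0.00724), a neuronal J protein that sends clients to the proteasome, and DNAJA2 (0.41 ± 0.14, adjusted p = 0.0331), a partner of HSC70, were called on day 17 against day -17 only. With bacterial control scaling DNAJC24, DNAJB2 and DNAJA2 were below 0 in that comparison, at -0.61, -0.60 and -0.89, and DNAJC5 was not called (0.19, adjusted p = 0.239). DNAJC24 also lost its call there without day -17 pool 3 (0.0778), without day 17 pool 2 (0.0733) or without day 17 pool 3 (0.0635), and DNAJA2 without day -17 pool 2 (0.103), without day -17 pool 3 (0.0653), without day 17 pool 1 (0.116) or without day 17 pool 3 (0.0809), and with no intensity trend (0.0503). The DNAJC24 call on day 1 was lost with bacterial control scaling (0.0997).

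Other J proteins went down. DNAJC14, a protein of the endoplasmic reticulum membrane that the lists used here count with the cytosolic ones, had 828.3, 949.3 and 1097 on day -17, 572.1, 493.3 and 362 on day 1 and 277.1, 356.8 and 292.7 on day 17. It was lower on day 1 than on day -17 (-1.03 ± 0.20, adjusted p = 0.00563) and on day 17 than on day -17 (-1.63 ± 0.20, adjusted p = 0.000168), with no overlap between days -17 and either later day. A second DNAJC14 probe set was at 0.03 on day 1 against day -17 and at -1.88 on day 17 against day -17 (adjusted p = 0.00602), and with both averaged the first of these comparisons was not called (-0.50, adjusted p = 0.18). DNAJC8, found with splicing factors, was lower on day 17 than on day -17 by a log2 difference of -0.64 ± 0.13 (adjusted p = 0.00304), and its second probe set gave -0.71 (adjusted p = 0.00359).

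DNAJC9, a histone chaperone of replicating cells, had 155.1, 168.4 and 117.3 on day -17, 142.7, 152.3 and 259.2 on day 1 and 70.41, 53.12 and 95.59 on day 17. The pools of day 17 were below all others, and pools 1 and 2 of that day were below the 40th percentile of their arrays (90.69 and 94.19), so the sizes that follow rest in part on dim signals. DNAJC9 was at -1.33 ± 0.32 against day 1 (adjusted p = 0.025) and -1.03 ± 0.32 against day -17 (adjusted p = 0.0245). Proliferation markers moved the same way: 7 of 10 were lower on day 17 than on day 1 and 8 of 10 than on day -17 (8.57% and 23.8% of all genes). The summed signal of these markers was 3416 to 6529 on day -17, 3487 to 6714 on day 1 and 1821 to 2328 on day 17. Their part in the DNAJC9 and CCT results was not tested. The DNAJC9 call against day 1 was lost without day 1 pool 3 (0.0839), without day 17 pool 1 (0.0648) or without day 17 pool 2 (0.0785), and that against day -17 without day -17 pool 1 (0.0657), without day -17 pool 2 (0.0801), without day 17 pool 1 (0.055) or without day 17 pool 2 (0.0802).

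Among the 15 cytosolic or nuclear J protein genes, 6 (DNAJA4, DNAJB1, DNAJB4, DNAJB6, DNAJC2 and DNAJC17) were not called in any comparison. DNAJB6, which holds back aggregation of polyglutamine proteins, had 2276, 2300 and 2616 on day -17, 2452, 2837 and 3088 on day 1 and 2978, 2705 and 2781 on day 17, and none of its 4 probe sets was called. DNAJB1, the heat-inducible J protein known as HSP40, had 626.7, 588.9 and 533 on day -17, 641.4, 856.2 and 854.1 on day 1 and 1056, 620.5 and 653.6 on day 17. Day 17 pool 1 stood alone at the top, and no difference was called. DNAJB4 gave -0.82 ± 0.33 on day 17 against day -17, which was not called (adjusted p = 0.0667). With pools of the same number as a block it was called (adjusted p = 0.0128).

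Of the 3 J proteins of the endoplasmic reticulum, DNAJB9 and DNAJC3 were higher on both later days than on day -17 (15.3% and 23.8% of all genes). DNAJB9, or ERdj4, a target of the unfolded protein response, had 485.4, 498.5 and 326.2 on day -17, 1816, 2015 and 1988 on day 1 and 1810, 2129 and 1671 on day 17. Days 1 and 17 overlapped and both lay far above day -17, at 2.18 ± 0.18 for day 1 (adjusted p = 5.29e-05) and 2.12 ± 0.18 for day 17 (adjusted p = 2.08e-05). All 3 DNAJB9 probe sets were called higher in both comparisons.

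DNAJC3, or p58IPK, which restrains the kinase PERK, had 137.6, 172.6 and 181.8 on day -17, 441.4, 489.9 and 747.9 on day 1 and 646.9, 589.6 and 595.3 on day 17. Its difference was 1.74 ± 0.21 on day 1 (adjusted p = 0.000525) and 1.91 ± 0.21 on day 17 (adjusted p = 9.63e-05), each against day -17. A second, dimmer DNAJC3 probe set was not called in either comparison (1.25, adjusted p = 0.0822, and 0.70, adjusted p = 0.249), and its day 17 pool 1, at 46.75, was below all pools of day -17. Neither gene was called on day 17 against day 1, at -0.06 ± 0.18 for DNAJB9 and 0.16 ± 0.21 for DNAJC3. DNAJB14, a J protein anchored in the same membrane, was not called in any comparison. The 3 chaperones of that compartment which the rule leaves out were also higher on day 1 than on day -17, HSPA5 (BiP) by 1.50 ± 0.17, HSP90B1 (GRP94) by 1.34 ± 0.13 and DNAJB11 by 1.60 ± 0.22. HSPA5 was lower on day 17 than on day 1 (-0.72 ± 0.17, adjusted p = 0.0193), although the call was lost without day 1 pool 2 (0.0528), without day 1 pool 3 (0.0519), without day 17 pool 2 (0.0537) or without day 17 pool 3 (0.0751). DNAJB11 was at -0.73 ± 0.22 with no overlap (adjusted p = 0.0543) and HSP90B1 at -0.15 ± 0.13, neither of them called. HSPA5 was higher on day 17 than on day -17 by 0.77 ± 0.17, HSP90B1 by 1.19 ± 0.13 and DNAJB11 by 0.87 ± 0.22, and with bacterial control scaling these were -0.53, -0.11 and -0.43.

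Of the 6 genes for mitochondrial chaperones, HSPD1 alone was called, and in a single comparison. It was lower on day 17 than on day -17, as were 23.8% of all genes. HSPD1, or HSP60, had 6614, 7471 and 7891 on day -17, 5015, 7757 and 7517 on day 1 and 4878, 5167 and 5630 on day 17. Its difference on day 17 against day -17 was -0.49 ± 0.17 (adjusted p = 0.0346), and it was lost without any of 5 pools (all but day -17 pool 1), with adjusted p from 0.0529 to 0.106, with median centring (0.0963) and with no intensity trend (0.0648). HSPE1, its lid HSP10 and its neighbour on chromosome 15 in the RefSeq gene order, had 10272, 10694 and 7593 on day -17, 7540, 11050 and 8810 on day 1 and 6919, 7686 and 7560 on day 17. It was not called, at -0.35 ± 0.17 on day 17 against day -17 (adjusted p = 0.108). HSPA9, or mortalin, the HSP70 of the matrix, was not called, although a second HSPA9 probe set was, at 0.43 ± 0.13 on day 1 against day -17 (adjusted p = 0.0388). DNAJA3, DNAJC11 and DNAJC19 were not called in any comparison.

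Among 6 small heat shock proteins tested, HSPB1 and HSPB6 were lower and HSPB7 was higher on day 17 than on day -17. The shares of all genes lower and higher there were 23.8% and 23.8%. HSPB1, or HSP27, had 3975, 3955 and 4328 on day -17, 3776, 3975 and 3698 on day 1 and 2289, 3190 and 2967 on day 17. All pools of day 17 were below all earlier ones, at -0.55 ± 0.13 against day -17 (adjusted p = 0.00763) and -0.45 ± 0.13 against day 1, just short of the threshold (adjusted p = 0.0505). HSPB6, or HSP20, a regulator of smooth muscle, had means of 876 ± 258 on day -17, 593 ± 256 on day 1 and 419 ± 68.5 on day 17 (SD, n = 3 pools), and was lower on day 17 than on day -17 by a log2 difference of -1.03 ± 0.31 (adjusted p = 0.0191). That call was lost without day -17 pool 1 (0.0644), without day -17 pool 3 (0.0644) or without day 17 pool 1 (0.0706).

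HSPB7, a small heat shock protein of heart and muscle, had 100.6, 121.7 and 75.77 on day -17, 133.5, 138.5 and 118.5 on day 1 and 213.5, 347.5 and 222.1 on day 17. The pools of day 17 were above all others, at 0.97 ± 0.27 against day 1 (adjusted p = 0.039) and 1.38 ± 0.27 against day -17 (adjusted p = 0.00232). With bacterial control scaling these were 0.10 and 0.08, and not called, and the first was lost without any one of the 6 pools compared (adjusted p 0.0605 to 0.13) and with no filter (0.0629). Of 8 myoepithelium and smooth muscle markers 4 were higher and 1 lower on day 17 than on day -17 (23.8% and 23.8% of all genes). The summed signal of these markers was 28473 to 37187 on day -17, 42413 to 55887 on day 1 and 37318 to 60293 on day 17, and their part was not tested. Of 8 skeletal muscle markers 7 were below the filter and TNNI2 was lower on day 17 than on day -17. HSPB2, HSPB8 and HSPB11 were not called in any comparison.

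Genes that work with these chaperones but lie outside the symbols (HSP90 cochaperones, prefoldin, tubulin folding cofactors and others) numbered 36 on the array and 35 after the filter. On day 1, 4 were higher (11.4%) and 4 lower (11.4%) than on day -17, against 15.3% and 10.4% of all genes. On day 17, 1 was higher (2.86%) and 3 lower (8.57%) than on day 1, against 8.02% and 8.57% of all genes. On day 17, 6 were higher (17.1%) and 10 lower (28.6%) than on day -17, against 23.8% and 23.8% of all genes. FKBP4, the HSP90 cochaperone of steroid receptors known as FKBP52, had 525, 608.2 and 552.2 on day -17, 2268, 2248 and 2230 on day 1 and 3527, 3594 and 2883 on day 17. The 3 days did not overlap, with differences of 2.00 ± 0.13 on day 1 against day -17 (adjusted p = 8.4e-06), 0.56 ± 0.13 on day 17 against day 1 (adjusted p = 0.0186) and 2.57 ± 0.13 on day 17 against day -17 (adjusted p = 6.71e-07). The middle one was lost without day 17 pool 1 (0.0676) or without day 17 pool 2 (0.073) and was -0.31 with bacterial control scaling.

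PTGES3, or p23, which closes the HSP90 cycle, was higher on day 1 than on day -17 (0.91 ± 0.15, adjusted p = 0.00288). On day 17 against day -17 its 2 probe sets were called in opposite directions, at 0.49 and -0.49, and the first was lost without day -17 pool 2 (0.057), without day -17 pool 3 (0.0701), without day 17 pool 1 (0.0899) or without day 17 pool 2 (0.0502). CRYAB, an alpha-crystallin that is also a small heat shock protein and lies beside HSPB2 on chromosome 9, had 1524, 1099 and 1127 on day -17, 972.5, 1492 and 835.9 on day 1 and 545.7, 407.3 and 388 on day 17. It was lower on day 17 than on day 1 (-1.27 ± 0.24, adjusted p = 0.00854) and than on day -17 (-1.48 ± 0.24, adjusted p = 0.000747), with no overlap in either comparison. PPID, or cyclophilin 40 of the HSP90 complex, was lower on day 17 than on day 1 (-0.89 ± 0.19, adjusted p = 0.0165), a call lost without day 17 pool 2 (0.0559) or without day 17 pool 3 (0.0598).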

How the data were processed

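The authors deposited 1 table of intensity values per probe set and array, on a linear scale, and per the submitters' processing notes MAS5 was the tool; its version, background steps and scaling target are not given in the sources used here. Signals of 24123 probe sets were taken to log2 with no pseudocount. The 124 control probe sets were left out, as were dim ones, defined as reaching the 40th percentile of an array on fewer than 3 of the 9, and 15519 remained. Day was fitted over all 9 arrays with limma 3.58.1 in R 4.3.3 (lmFit, eBayes with trend) and p-values were adjusted by Benjamini-Hochberg over all tested probe sets, with a threshold of 0.05. With 3 pools against 3 an exact permutation test cannot give a p below 0.1, so none is reported. A gene is given by the tested probe set that was brightest on average (log2). Signals are not comparable between probe sets, and the number of arrays limits precision. Probe sets were named from the platform annotation (10099 with 1 symbol, 198 with several and 13826 with none). Of the 52 member symbols, 51 equalled the RefSeq symbol of their gene ID in Sscrofa11.1, used for names and neighbours only.

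Members and lists were chosen with earlier results of these data known. Signals per array were given for the 6 called members with the largest differences in day 1 against day -17 and in day 17 against day 1, the 4 largest in day 17 against day -17, the member with the highest signal of each role and the called CCT subunits; of the partner genes the 2 largest called per comparison were named. Further signals, such as those of HSPA6, HSPE1, DNAJB1, CCT6A, HSP90AA1 and HSP70.2, were added after they were seen.

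The labels number the pools 1 to 3 on each day without saying that a number stands for the same sows. Deviations of pools with the same number correlated at 0.235 to 0.506 for day 1 and day -17, 0.105 to 0.130 for day 17 and day -17 and 0.096 to 0.107 for day 17 and day 1, and the block was printed beside results for the first 2 pairs of days. Alternatives were quantile normalization, median centring, scaling on 21 E. coli control probe sets, a pseudocount, other filters, no intensity trend, a minimum of 2-fold, the 6 compared arrays alone, the mean over a gene's probe sets, the replicate block and leaving out each pool. On simulated data with 15122 probe sets for day 1 against day -17, the fit recovered 44 of 100 probe sets changed 2-fold. It recovered 80 of 100 changed 4-fold, with 4.62% false calls. Only those probe sets were changed there, whereas 3736 of 15519 were called in the data. The p cutoff after adjustment depends on that share, so these rates do not give the sensitivity of the fit on these data. A planned description of promoters was not run, and no sequences were used here.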

Additional observations from a re-analysis of the deposited data

How the results depend on the processing

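Of 54 gene results with a call, 24 held under every alternative in which the gene was tested other than the 2-fold minimum, which is counted separately below, 24 were lost under 1 to 5 and 6 under more than 5; 9 were lost and 3 reversed with E. coli control scaling, and no other alternative reversed one. The reversed ones, all on day 17 against day -17, were DNAJA2 (-0.89), DNAJB2 (-0.60) and DNAJC24 (-0.61). In that comparison and with that scaling HSPA5 was at -0.53, HSP90B1 at -0.11, DNAJB11 at -0.43 and PTGES3 at -0.82, and FKBP4 was at -0.31 on day 17 against day 1; with its probe sets averaged PTGES3 was at 0.00 on day 17 against day -17, just below 0. Member genes called on day 1 against day -17 numbered 13, with 7 at a minimum of 2-fold, 25 with E. coli control scaling and 9 to 16 without single pools. On day 17 against day -17 they numbered 27, with 11, 48 and 21 to 28 under the same 3 changes, and on day 17 against day 1 they numbered 14, with 2, 43 and 6 to 17. Over the 3 days 30 were called, 49 with E. coli control scaling and 23 to 32 without single pools. Partner genes called numbered 8 on day 1 against day -17 (23 with E. coli control scaling, 5 with no intensity trend, 5 on the 6 compared arrays alone, 5 to 9 without single pools), 16 on day 17 against day -17 (34 and 12 to 18) and 4 on day 17 against day 1 (32 and 1 to 4). With the replicate block as a fixed term 15, 29 and 18 members were called in these 3 comparisons, against 13, 27 and 14 without it; the block ended no call of a member and, on day 17 against day 1, added CCT6A, DNAJB4, HSPB1 and STIP1. Apart from E. coli control scaling, which moves all genes, and the alternatives that test fewer pools or set a minimum fold, the cause of a lost call was not tested.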

Other observations

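Prefoldin hands unfolded actin and tubulin to CCT, and phosducin-like proteins assist CCT. Of 7 genes on that list, 1 was higher and 2 were lower on day 1 than on day -17 (15.3% and 10.4% of all genes). None was called on day 17 against day 1 (limma). On day 17, 2 were higher and 3 lower than on day -17 (23.8% and 23.8% of all genes). The genes named next were chosen after their values were seen. The prefoldin subunit PFDN4 had 1721, 2119 and 1912 on day -17, 1232, 1319 and 944.2 on day 1 and 703.3, 956.2 and 880.9 on day 17, and was lower, with log2 differences of -0.73 ± 0.17 on day 1 (adjusted p = 0.0136) and -1.19 ± 0.17 on day 17 (adjusted p = 0.000452), each against day -17. The subunit VBP1 was lower too, with -0.55 ± 0.11 on day 1 (adjusted p = 0.00629) and -0.53 ± 0.11 on day 17 (adjusted p = 0.00322). TXNDC9, a phosducin-like protein that binds CCT, was higher relative to the average gene, with 0.48 ± 0.13 on day 1 and 0.49 ± 0.13 on day 17.

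Of the 4 tubulin cofactors, which take over tubulin after CCT, 2 were lower on day 17 than on day -17 (23.8% of all genes). TBCA was among them (-0.57 ± 0.13, adjusted p = 0.00558). UNC45A, which brings HSP90 to myosin, was lower on day 1 (-0.87 ± 0.16, adjusted p = 0.0043) and on day 17 (-0.78 ± 0.16, adjusted p = 0.00302) than on day -17. HSF2, a relative of HSF1, had 846.1, 1090 and 967.3 on day -17, 568.1, 873.8 and 676.2 on day 1 and 461, 521.3 and 528 on day 17, with -0.94 ± 0.18 on day 17 against day -17 (adjusted p = 0.00212). Of the 4 mitochondrial cofactors none was called in any comparison.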
